A study of Mus musculus with 3 samples.

Results

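The transcripts described here are those of 8 genes of the S100 family of small calcium-binding proteins, namely S100a1, S100b, S100a4, S100a6, S100a10, S100a11, S100a13 and S100a16. They were taken by symbol from the 57180 genes of the deposited table, and all 8 were found. They are not the whole family. Left out were 10 other S100 genes, described further below, among them S100a8 and S100a9, the pair that neutrophils make in bulk. The measurements come from 3 libraries of WT (wild-type) mouse cells described as resembling black balls, taken from the vestibular part of the inner ear, which senses balance. The labels call the cells macrophages, the series title speaks of melanocytes, and there is 1 group with no control group. According to the labels' protocols, 9 mice gave the 18 cells, 3 mice going into each group, and polyadenylated RNA was copied and amplified with the SMART-Seq HT kit. Strain, age and the number of cells behind each library are not given in the sources used here, so the p-values cover no more than the variation among these 3 libraries, and that variation may be technical.

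S100 proteins are dimers whose subunits each carry a pair of EF-hands, the helix-loop-helix folds that hold calcium ions. On binding calcium most of them open a groove and grip target proteins, among them annexins, cytoskeletal proteins and enzymes, and some are released from cells and bind the receptor RAGE, encoded by Ager. Antibodies to S100 proteins are a routine stain for melanocytes and Schwann cells, in which S100b is the main form, and S100 antibodies also label supporting cells of the inner ear.

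Promoter windows from RefSeq (build GRCm38.p6, 250 bases before to 50 bases after the start site) were found for 7 of the 8 members. Printed here are those of the pair with the highest levels and of the member with the lowest. A relation between sequence and level was not tested. S100a1 (minus strand, chr3:90514281-90514580) lies head to head with S100a13, which lies on the plus strand. In the S100a1 window, capitals mark the 104 bases between the start sites of the neighbours. In the windows of S100b (plus strand, chr10:76253586-76253885) and S100a4 (plus strand, chr3:90603520-90603819) capitals mark matches to TATAAA or GGGCGG, searched on both strands.
S100a1: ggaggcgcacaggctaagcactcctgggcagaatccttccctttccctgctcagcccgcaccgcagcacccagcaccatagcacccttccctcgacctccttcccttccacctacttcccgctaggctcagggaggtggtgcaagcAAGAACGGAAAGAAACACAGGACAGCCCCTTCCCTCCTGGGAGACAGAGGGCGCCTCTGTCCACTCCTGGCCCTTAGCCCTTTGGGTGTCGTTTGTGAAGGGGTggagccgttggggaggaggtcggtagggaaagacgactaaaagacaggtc
S100b: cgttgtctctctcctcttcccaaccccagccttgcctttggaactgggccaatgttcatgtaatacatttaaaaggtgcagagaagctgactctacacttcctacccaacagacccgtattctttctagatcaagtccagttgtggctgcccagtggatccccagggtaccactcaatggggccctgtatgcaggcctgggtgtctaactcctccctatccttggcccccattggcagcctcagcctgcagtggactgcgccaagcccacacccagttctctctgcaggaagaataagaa
S100a4: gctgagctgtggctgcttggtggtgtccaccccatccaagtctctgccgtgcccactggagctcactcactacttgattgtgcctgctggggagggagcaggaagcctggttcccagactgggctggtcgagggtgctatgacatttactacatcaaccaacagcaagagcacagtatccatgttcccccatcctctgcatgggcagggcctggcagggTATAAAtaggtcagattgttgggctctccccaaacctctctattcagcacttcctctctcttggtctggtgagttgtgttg
Neither motif was present in the windows of S100a1, S100b, S100a6 or S100a13. The S100a4 window held TATAAA at position -31 from the start site, a motif found in 13.6% of all 32851 windows. The S100a11 window held GGGCGG 3 times and 1 of the 2 windows of S100a16 held it at position -30, and GGGCGG stood in 35.7% of all windows.

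Each library held between 14095521 and 18460546 counts. The levels below are TPM, made by scaling the deposited FPKM to the same total in each library, with the mean ± SD over n = 3 libraries unless stated. Markers of several cell types were present beside those of the labelled macrophages: all 12 macrophage markers and 12 of 12 hair cell markers stood above 1 TPM, as did 7 of 10 melanocyte, 9 of 13 Schwann cell and glia, 7 of 8 dark cell, 9 of 10 supporting epithelium and 9 of 10 fibroblast and fibrocyte markers. The same held for 5 of 8 neuron, 2 of 10 endothelial, 1 of 7 monocyte and 1 of 8 neutrophil markers, and for 37.6% of all genes tested and 50.5% of protein-coding genes. Among the melanocyte markers, Oca2 was at 0 in replicates 2 and 3. Each library is a single sum over its cells, so fewer cells of a type and less RNA per cell cannot be told apart, and no S100 transcript can be placed in a cell type from these files.

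Of the 8 S100 genes, 7 stood above 1 TPM in limma's moderated test of the mean of log2(TPM + 1), one-sided, with Benjamini-Hochberg adjustment over 27265 genes and a threshold of 0.05. The same call was made for 37.6% of all genes tested and 50.5% of protein-coding genes. The count was also 7 of 8 at a level of 10 TPM, passed by 14.7% of all genes, at 1 CPM without gene length, passed by 43.4%, and at 1 TPM with the longest transcript length explained below, passed by 39.2%. The median level of the 8 was 9.01 on the log2(TPM + 1) scale, against 1.49 over all genes tested and 2.32 over protein-coding genes. The 8 were chosen with earlier results of these data known, so their share and median do not describe the S100 family as a whole. Together the 8 genes took 1.02%, 1.07% and 1.21% of all counts in replicates 1, 2 and 3 (mean 1.10% ± 0.0977), and S100a1 and S100b made up 89.0% to 90.4% of that.

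**Figure D1:**
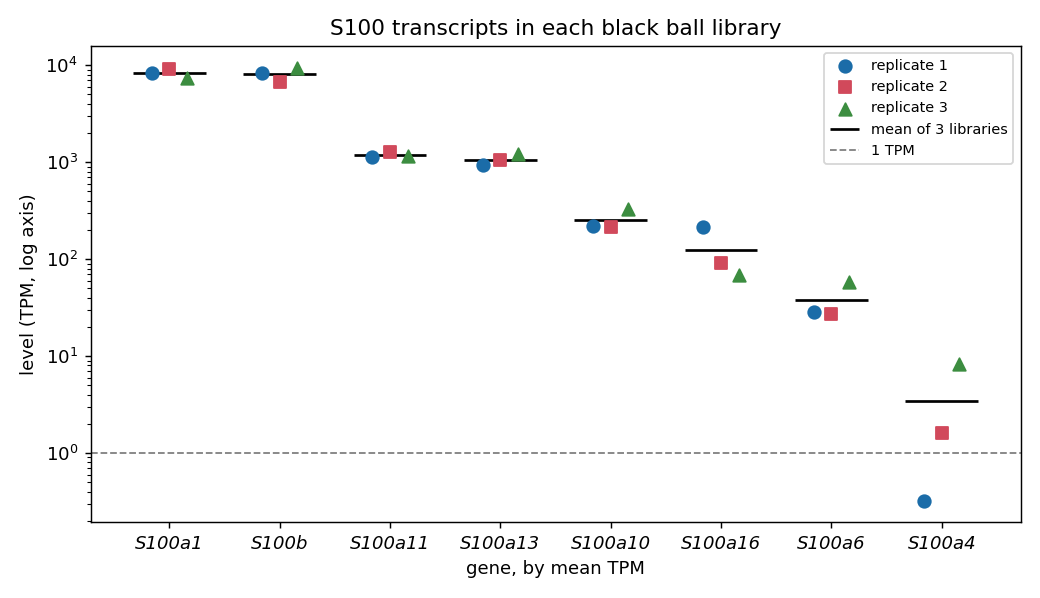
Level of each S100 gene in TPM (log axis) in each of 3 libraries (blue circles, red squares and green triangles for replicates 1, 2 and 3), with black bars for the mean and a dashed line at 1 TPM. S100a1 and S100b lie between 6706 and 9456 TPM, and S100a4 lies on both sides of the line.

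S100a1 and S100b, the forms first purified from brain, were the highest. S100a1 (ENSMUSG00000044080, chromosome 3, 90418341 to 90421699, build GRCm39) stood at 8350, 9198 and 7397 TPM in replicates 1, 2 and 3. S100b (ENSMUSG00000033208, chromosome 10, 76089687 to 76096993) had 8233, 6706 and 9456 TPM there. The values of the genes overlapped: S100a1 was higher in replicates 1 and 2 and S100b in replicate 3. With means of 8315 ± 901 and 8131 ± 1378 TPM they ranked 14 and 15 among the 27265 genes, and each stood above 1 TPM in limma's test (adjusted p = 1.46e-05 and 1.48e-05). The difference, S100a1 minus S100b, was 0.04 ± 0.41 on the log2(TPM + 1) scale, smaller than its spread between libraries (two-sided p = 0.75 by exact permutation of signs, 0.75 after adjustment over 7 neighbouring pairs). No pair could reach 0.05, because the lowest p possible with 3 libraries is 0.25.

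Next in level were S100a11, a partner of annexin A1, and S100a13, which takes part in the unconventional release of FGF1. S100a11 (ENSMUSG00000027907, chromosome 3, 93427795 to 93433594) stood at 1127, 1281 and 1156 TPM in replicates 1, 2 and 3. S100a13 (ENSMUSG00000042312, chromosome 3, 90421742 to 90431888) had 928, 1055 and 1215 TPM there. S100a11 was higher in replicates 1 and 2 and S100a13 in replicate 3. The mean difference of 0.16 ± 0.20 on the log2(TPM + 1) scale was smaller than its spread (p = 0.5 by exact permutation, 0.583 adjusted). S100a11 had the smallest spread of the 8 genes on that scale, with an SD of 0.10. The median SD was 0.48 over the 6690 genes with a mean of at least 10 TPM, most of them far lower than S100a11 (median 31.5 TPM). In CPM the ratio of highest to lowest library was 1.27 for S100a11 and 1.23 for S100a1. S100a11 had 4274, 4424 and 3910 counts in replicates 1, 2 and 3, against 0, 1 and 2 for its processed pseudogene S100a11-ps. S100b stood above S100a11 in 3 of 3 libraries, by 2.76 ± 0.33 (p = 0.25 by exact permutation, 0.35 adjusted).

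S100a10, the calcium-independent light chain of annexin A2, and S100a16, a broadly expressed member, followed. S100a10 (ENSMUSG00000041959, chromosome 3, 93462387 to 93471950) stood at 221, 214 and 326 TPM in replicates 1, 2 and 3. S100a16 (ENSMUSG00000074457, chromosome 3, 90444561 to 90450458) had 213, 90.4 and 68.2 TPM there. Replicate 3 was highest for S100a10 and lowest for S100a16, and in replicate 1 the levels of the genes were nearly equal. S100a13 stood above S100a10 in 3 of 3 libraries, by 2.09 ± 0.20 (p = 0.25 by exact permutation, 0.35 adjusted). The step from S100a10 to S100a16, 1.18 ± 1.09, went the same way in 3 of 3 libraries (p = 0.25 by exact permutation, 0.35 adjusted), and it was 1.74 without replicate 1 and 0.64 without replicate 3.

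S100a6, or calcyclin, a protein of fibroblasts and epithelia, and S100a4, known as fibroblast-specific protein and also made by myeloid cells, were the lowest. S100a6 (ENSMUSG00000001025, chromosome 3, 90520189 to 90531488) stood at 28.8, 27.1 and 58.2 TPM in replicates 1, 2 and 3. It passed limma's test against 1 TPM (adjusted p = 9.85e-05), with replicate 3 above the others. S100a4 (ENSMUSG00000001020, chromosome 3, 90511078 to 90513352) had 0.323, 1.597 and 8.33 TPM there. These values rest on 2, 9 and 46 counts, or 0.108, 0.597 and 3.26 CPM, with exact Poisson 95% intervals of 0.0131 to 0.391, 0.273 to 1.13 and 2.39 to 4.35 CPM that cover counting error only. The intervals of replicates 1 and 2 overlapped and that of replicate 3 lay above both, and S100a4 was the member that did not pass limma's test (adjusted p = 0.354). S100a16 stood above S100a6 by 1.59 ± 1.31, and S100a6 above S100a4 by 3.53 ± 0.92, each in 3 of 3 libraries (p = 0.25 by exact permutation, 0.35 adjusted). Without replicate 1 the difference between S100a16 and S100a6 was 0.96, and without replicate 3 it was 2.27.

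The steps between neighbours, and the order of some neighbours within single libraries, depend on the gene length behind FPKM. The length that the deposited counts and FPKM imply was compared with GENCODE M21, matched by gene ID for 95.3% of the genes tested. For genes with 1 transcript there, the implied length equalled that transcript within 0.5% in 95.4% of 10290 cases. For genes with 2 or more transcripts it was longer than the longest one in 98.3% of 15683 cases, with a median ratio of 1.93. Levels of genes with many annotated isoforms are therefore lowered relative to genes with 1.

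Among the S100 genes, S100b (1484 bp), S100a11 (511 bp) and S100a13 (715 bp) have 1 transcript and the implied length equalled it. The implied length of S100a1 was 1254 bp, the sum of its 2 transcripts, against 677 bp for the longest. That of S100a4 was 834 bp, likewise the sum of 2, against 498 bp. S100a16 had the largest ratio: 5377 bp was implied, and the longest of its 8 transcripts has 1127 bp. For S100a10 and S100a6 the ratios of implied to longest length were 2.37 and 2.46.

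With the length of the longest transcript in place of the implied one, a setting chosen after seeing the data, S100a1 stood above S100b in 3 of 3 libraries. S100a1 then had 10070, 11531 and 9225 TPM and S100b 5360, 4538 and 6366 TPM in replicates 1, 2 and 3, so their values no longer overlapped. The difference was 0.93 ± 0.41 on the log2 scale (p = 0.25 by exact permutation, 0.35 adjusted). S100a10 then had 340, 343 and 519 TPM and S100a16 had 661, 292 and 219 TPM, and the difference S100a10 minus S100a16 shrank to 0.17 ± 1.10 (p = 0.75 by exact permutation, 0.75 adjusted). S100a13 minus S100a10 shrank from 2.09 to 0.85 ± 0.20, with S100a13 still higher in 3 of 3 libraries (p = 0.25 by exact permutation, 0.35 adjusted), and it was 0.90 in CPM. The order of the 8 mean levels was the same with either length. In CPM, which uses no length and so does not compare genes per length, S100a1 had a mean of 4577 ± 515 CPM and S100b one of 5320 ± 1123 CPM.

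**Figure D2:**
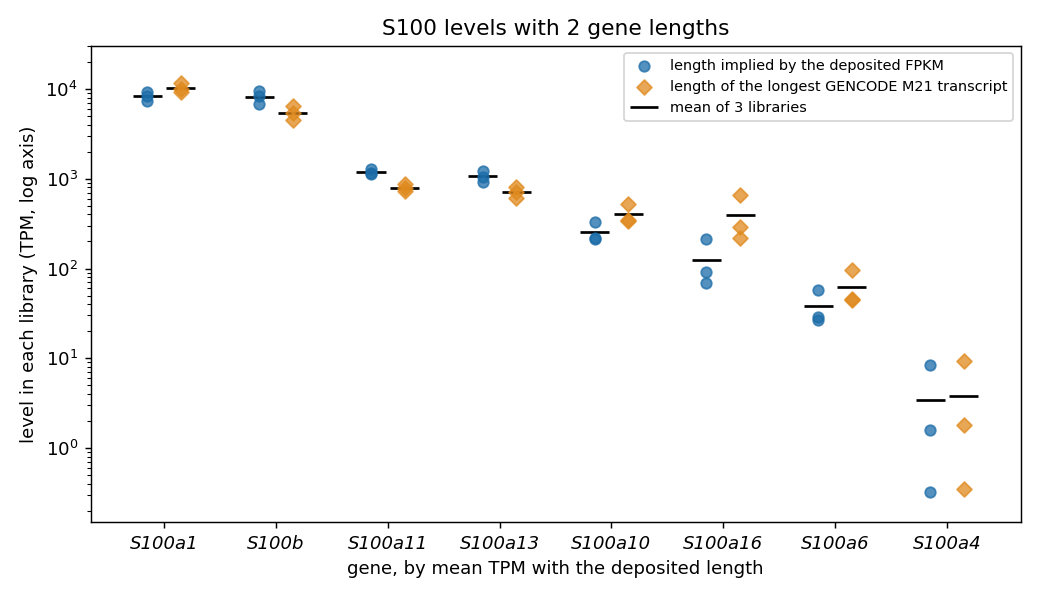
Level of each S100 gene in TPM (log axis) in 3 libraries with the length implied by the deposited FPKM (blue circles) and with the length of the longest GENCODE M21 transcript (orange diamonds), with black bars for means. The S100a1 and S100b points overlap with the first length and separate with the second, and S100a16 moves up to the range of S100a10.

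Genes of similar level were sought by the root mean square difference in log2(TPM + 1) over the 3 libraries. For S100a1 the closest was Apod, a secreted lipocalin, at 8672, 9886 and 6741 TPM in replicates 1, 2 and 3 (difference 0.10), followed by Gm10123 (0.26) and Gpx4-ps2 (0.26). For S100b the closest were Gpx4-ps2 (0.16), S100a1 (0.33) and Ubb-ps (0.40). The values of Gpx4-ps2 and Ubb-ps, named as pseudogenes, are uncertain where reads could also match a near-identical parent gene, and a measure over 3 libraries describes level more than pattern.

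S100 proteins act through what they bind, so the transcripts of known partners were set beside them. Of 28 partner genes, 14 stood above 1 TPM in limma's test, a share of the list read against 37.6% of all genes tested and 50.5% of protein-coding genes. Il1a, among the 28, had no count. Their median level was 2.44 on the log2(TPM + 1) scale, close to the 2.32 of protein-coding genes. The 4 highest were Anxa5, Anxa2, Cacybp and Anxa1. Anxa5, encoding annexin A5, stood at 1863, 1297 and 802 TPM in replicates 1, 2 and 3, with the highest value in replicate 1 and the lowest in replicate 3.

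For the annexin partners the level per length differed by pair. Anxa2, whose protein forms a tetramer with S100A10, stood at 470, 262 and 237 TPM in replicates 1, 2 and 3. The difference S100a10 minus Anxa2 was -0.31 ± 0.77, with S100a10 the higher in 1 of 3 libraries (p = 0.75 by exact permutation, 0.75 adjusted over 11 pairs). That difference is smaller than its spread and was 0.093 with the longest transcript length. Anxa1 stood at 120, 196 and 58.8 TPM, and S100a11 was higher in 3 of 3 libraries, by 3.40 ± 0.80 (p = 0.25 by exact permutation, 0.306 adjusted). That difference was 2.03 ± 0.80 with the longest transcript length and 0.32 in CPM, where Anxa1 was the higher in replicate 2. S100a6 stood above its annexin partner Anxa11 (2.50, 1.37 and 4.42 TPM) by 3.37 ± 0.25 in 3 of 3 libraries (p = 0.25 by exact permutation, 0.306 adjusted). Anxa11 itself did not pass limma's test against 1 TPM (adjusted p = 0.144), and it did among genes counted in all 3 libraries (adjusted p = 0.0493) and in CPM (0.0361).

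The other partners fell on both sides. Cacybp, encoding the calcyclin-binding protein of the ubiquitin pathway, stood at 317, 343 and 133 TPM in replicates 1, 2 and 3. It was the partner above its S100 gene in 3 of 3 libraries, S100a6 minus Cacybp being -2.74 ± 1.35 (p = 0.25 by exact permutation, 0.306 adjusted) and -3.52 without replicate 3. Ahnak, a giant scaffold that binds the complex of S100A10 and annexin A2, stood at 2.59, 3.84 and 8.30 TPM, and S100a10 was higher in 3 of 3 libraries, by 5.52 ± 0.41 (p = 0.25 by exact permutation, 0.306 adjusted). Ahnak passed limma's test against 1 TPM (adjusted p = 0.0274), and the call ended without replicate 3 (adjusted p = 0.127), with a pseudocount of 5 (0.0707) and with the longest transcript length (0.0698). Myh9, a non-muscle myosin heavy chain bound by S100A4, stood at 1.31, 0.979 and 3.06 TPM, so that S100a4 minus Myh9 was 0.26 ± 1.01, smaller than its spread (p = 0.75 by exact permutation, 0.75 adjusted).

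S100A1 is best known from muscle, where it binds the ryanodine receptor and the calcium pump of the sarcoplasmic reticulum. Ryr2 had 0, 9 and 84 counts in replicates 1, 2 and 3 and Ryr1 had 1, 24 and 3, and neither stood above 1 TPM. The pump gene Atp2a2 stood at 24.99, 38.5 and 16.3 TPM and did (limma, adjusted p = 0.000174), below S100a1 by 8.31 ± 0.44 in 3 of 3 libraries (p = 0.25 by exact permutation, 0.306 adjusted). Fgf1, which S100A13 helps to export, stood at 12.7, 8.06 and 24.0 TPM, below S100a13 by 6.19 ± 0.64 in 3 of 3 libraries with the same p and adjusted p in the exact permutation test. Ager, the gene of the receptor RAGE, stood at 2.54, 0.539 and 4.06 TPM and did not pass limma's test (adjusted p = 0.302), lying 11.38 ± 0.63 below S100b. Stk38, a kinase that S100B activates, stood at 5.10, 1.38 and 2.06 TPM and did not pass (limma, adjusted p = 0.16), and it did pass with the longest transcript length (adjusted p = 0.0028). S100b stood 11.15 ± 0.65 above it with the implied length, and each of these S100b differences went the same way in 3 of 3 libraries (p = 0.25 by exact permutation, 0.306 adjusted). The plot of pair differences shows these values library by library.

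**Figure D3:**
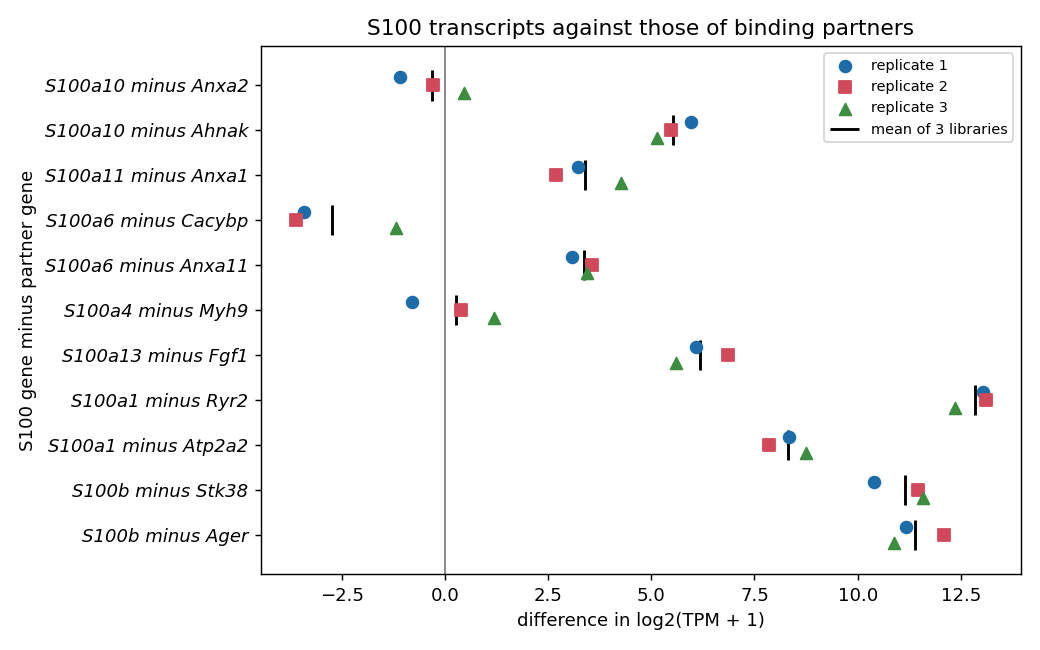
Difference in log2(TPM + 1), S100 gene minus partner gene, for 11 pairs in 3 libraries (blue circles, red squares and green triangles for replicates 1, 2 and 3), with black bars for means and a grey line at 0. Points of S100a10 minus Anxa2 and S100a4 minus Myh9 lie on both sides of 0, those of S100a6 minus Cacybp lie below it, and those of the other pairs lie above it.

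Most of the rest of the family, set apart from the members with earlier results of these data known, lay at or near 0. Of 10 other S100 genes, 2 stood above 1 TPM in limma's test, S100a8 (6.71, 159 and 61.6 TPM in replicates 1, 2 and 3, adjusted p = 0.00545) and S100a9 (6.48, 135 and 57.3 TPM, adjusted p = 0.00529), both lowest in replicate 1 and highest in replicate 2. Of the 10, 5 had a count and entered the test, so 2 of 5 is the share on the same basis as the background. The share called was 37.6% over all genes tested and 50.5% over protein-coding genes tested. S100a7a had 58 counts in replicate 1 and none in the others, S100a3, a gene of the hair cuticle, had 34 counts in replicate 3 and none in the others, and the epithelial S100a14 had 24, 31 and 0 counts in replicates 1, 2 and 3. S100a2, S100a5, S100a7l2, S100g and S100z had no count in any library, which at the floor of 3 counts allows up to 0.163, 0.199 and 0.213 CPM in replicates 1, 2 and 3. S100g, encoding the small calbindin of calcium-absorbing epithelia, overlaps Ctps2. Of 7 genes with an S100-type domain fused to a repetitive tail, such as filaggrin, 3 had any count and none stood above 1 TPM in limma's test (0 with an unadjusted p under 0.05).

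All members but S100b lie on chromosome 3, where 15 S100 genes are spread over 3054 kb, and genes of high and very low level are interspersed there. S100a1 and S100a13, 42 bp apart in the deposited loci, were both high, with S100a1 above S100a13 by ratios of 9.00, 8.72 and 6.09 in TPM in replicates 1, 2 and 3. S100a14 next to them was at most 1.47 TPM, and S100a16 beyond it was at least 68.2 TPM. Between S100a3 and S100a6 lie S100a4 and S100a5, and S100a5 had no count. Of the 15 genes, 8 stood above 1 TPM, while S100a2, S100a5 and S100a7l2 had no count and so were not tested. Of the 61 other protein-coding genes within the same span, 3 stood above 1 TPM and 49 had no count. The share called among all protein-coding genes tested, 50.5%, leaves out genes without a count, so it is not on the same basis as 8 of 15 or 3 of 61. Those 61 include the epidermal differentiation genes between S100a9 and S100a11. S100a2 and S100a3 overlap, as do S100a4 and Gm42674, which had no count. S100b had 90692, 67244 and 92877 counts in replicates 1, 2 and 3, against 372, 26 and 558 for Dip2a, whose end it overlaps.

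**Figure D4:**
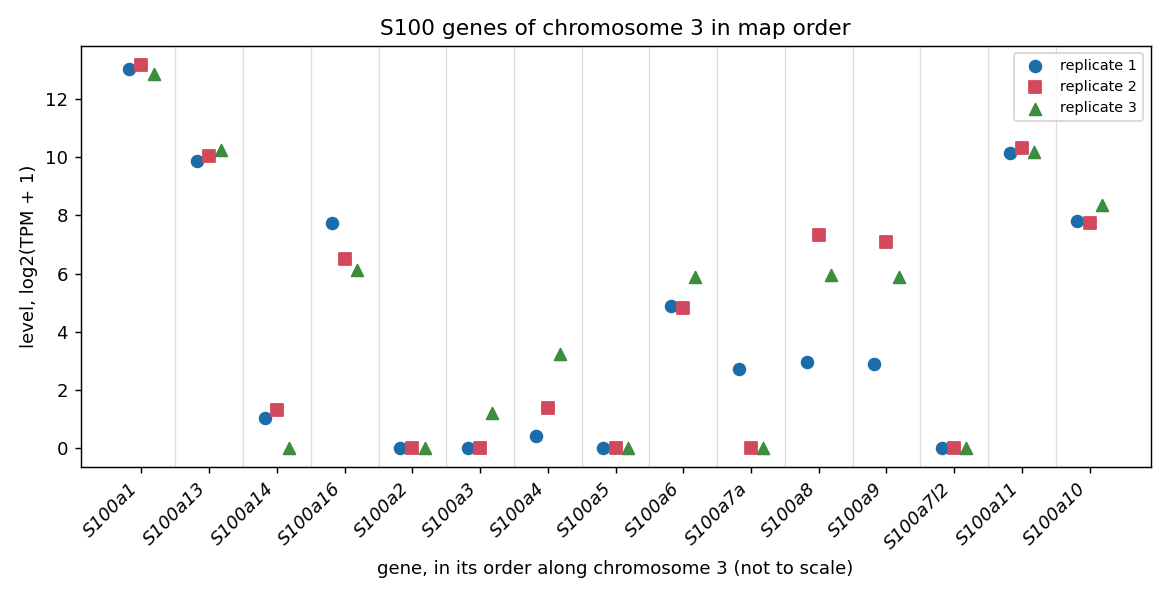
Level of the 15 S100 genes of chromosome 3 in log2(TPM + 1), in their order along the chromosome (not to scale), in 3 libraries (blue circles, red squares and green triangles for replicates 1, 2 and 3). S100a1, S100a13, S100a16, S100a6, S100a11 and S100a10 are high in every library, with S100a2, S100a5 and S100a7l2 at 0.

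The libraries differed most in the members lowest by TPM. For S100a4, on 2, 9 and 46 counts, the ratio of highest to lowest library was 25.8. By CPM S100a16 was not among the lowest, with rank 4 of the 8. S100a16 was 3.12 times as high in replicate 1 as in replicate 3, and S100a6 was 2.15 times as high in replicate 3 as in replicate 2. The ratio of highest to lowest library was 1.24 for S100a1, 1.41 for S100b, 1.14 for S100a11, 1.31 for S100a13 and 1.52 for S100a10. S100a10, S100a6, S100a4, S100a13 and S100b were highest in replicate 3.

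Marker lists moved between libraries too. The 8 neuron markers summed to 119, 89.8 and 411 TPM in replicates 1, 2 and 3, with Rbfox3 at 0 in replicate 1. Their sum was highest in replicate 3, as S100a6 and S100a4 were. That was not particular to neuron markers: the hair cell sum (659, 530 and 807 TPM) and the endothelial sum (21.4, 33.7 and 37.6 TPM) were highest there too. The mean of log2(TPM + 1) over the hair cell markers was lowest in replicate 3, at 4.92, 4.63 and 4.37. The 10 supporting epithelium markers summed to 3920, 2673 and 2266 TPM in replicates 1, 2 and 3, highest in replicate 1, as S100a16 was. The macrophage sum and the Schwann cell and glia sum, both given below, were highest in replicate 1 too. The 12 macrophage markers summed to 8964, 5755 and 6539 TPM, a sum led by Lyz2 and Ctss. The mean of log2(TPM + 1) over the 12 was lowest in replicate 1 and highest in replicate 3, at 6.61, 6.90 and 7.22, the same order of libraries as for S100a4. Macrophage markers were not alone in that order. The same means over the dark cell markers (4.49, 4.56 and 4.99) and the endothelial markers (1.14, 1.42 and 1.71) shared it. The 7 monocyte markers summed to 8.07, 234 and 17.4 TPM and the 8 neutrophil markers to 9.32, 116 and 28.5 TPM. Both sums were highest in replicate 2, as S100a8 and S100a9 were, while S100a4 was highest in replicate 3. Chil3 alone gave 190 TPM of the monocyte sum in replicate 2, and each of the 7 monocyte markers was highest there. Of the neutrophil markers, Ltf, Mmp8 and Cxcr2 were not highest in replicate 2. The 10 melanocyte markers, summing to 548, 671 and 671 TPM, and the 13 Schwann cell and glia markers, summing to 458, 227 and 379 TPM, were lower than S100b alone in each library. This was not particular to them, as the hair cell, dark cell, supporting epithelium, neuron, endothelial, monocyte and neutrophil sums were lower too. The fibroblast and fibrocyte sum was above S100b in each library, and the macrophage sum was above it in replicate 1 only. The part of these cell types in the S100 levels was not tested.

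**Figure D5:**
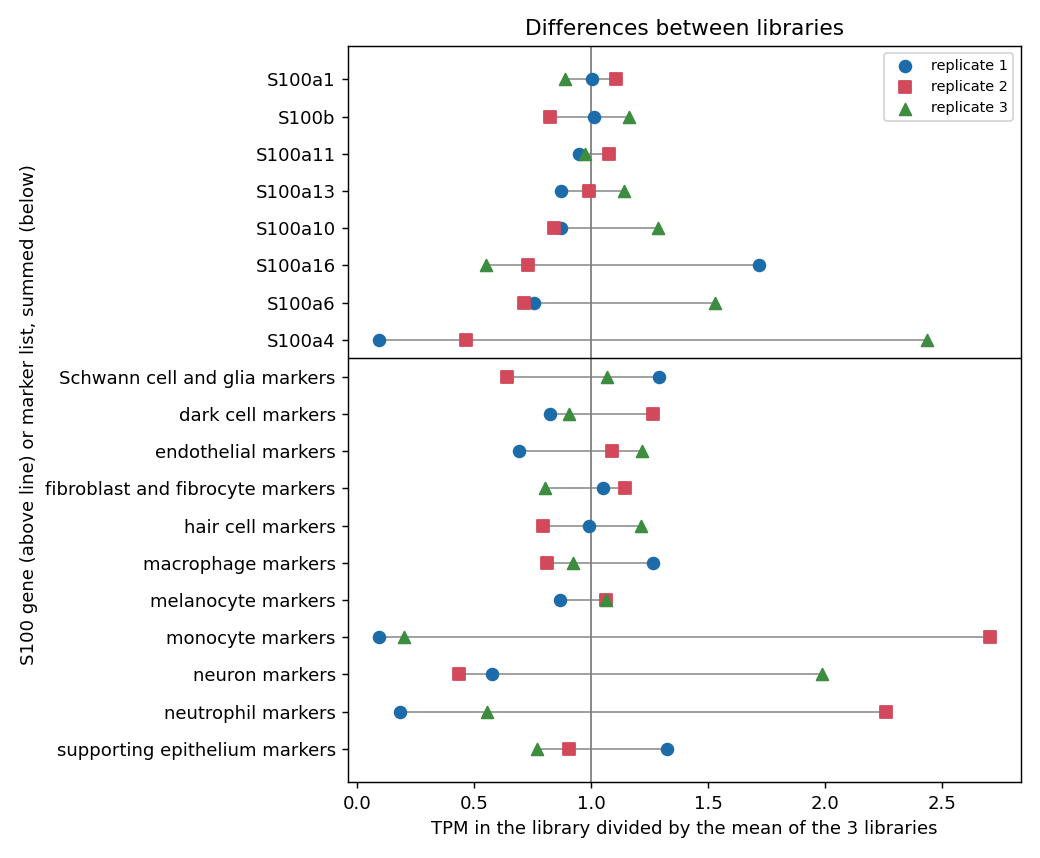
TPM in each of 3 libraries divided by the mean of the 3, for the 8 S100 genes (above the line) and for the summed TPM of 11 marker lists (below it), with blue circles, red squares and green triangles for replicates 1, 2 and 3. S100a1, S100b, S100a11 and S100a13 stay close to 1, and S100a4 and the monocyte, neutrophil and neuron lists spread widest.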

How the data were processed

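Per the file headers, the deposited table holds raw counts and FPKM per gene for 3 libraries. HISAT2, StringTie, edgeR and GRCm39 are named in the submitters' processing notes, without versions, roles or order. Strand use and the treatment of reads matching several genes are not given in the sources used here. FPKM was rescaled to TPM and analysed as log2(TPM + 1), which understates differences of low genes. The 27265 genes counted in 1 or more libraries entered 1 intercept-only limma 3.58.1 fit with a mean-variance trend (R 4.3.3). Differences between genes within a library were tested by exact sign-flip permutation, adjusted over 7 neighbouring pairs and, separately, 11 partner pairs. The gene lists are 28 partners, 10 other S100 genes, 7 fused genes and 11 marker lists. The members and lists were chosen with earlier results of these data known. Named in the text are all S100 genes, the partner pairs with the 4 highest partners, and the 3 genes closest to S100a1 and to S100b. The limma test against 1 TPM was also run on simulated counts. These had a single dispersion for all genes, while the spread between the real libraries differed between genes. No result here rests on them. Intervals and floors cover counting error only.

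Alternatives were pseudocounts of 0.1 and 5, CPM, scaling by edgeR 4.0.16 (TMM) and DESeq2 1.42.0 size factors of the counts, a filter for genes counted in all 3 libraries, no trend, a level of 10 TPM, each library left out, and, added after seeing the data, the longest GENCODE M21 transcript as gene length. Depth is given in the report. A comparison of coding sequences between members is not reported here.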

Additional observations from a re-analysis of the deposited data

How the results depend on the processing

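The count of 7 S100 genes above 1 TPM was the same in all 12 alternatives, and S100a4 did not pass in any of them (limma, adjusted p between 0.159 and 1). The 10 other S100 genes gave 2 calls in 11 alternatives and 0 at a level of 10 TPM (limma, 2 with an unadjusted p under 0.05). The partner count lay between 10 at a level of 10 TPM and 18 in CPM. Ahnak stood at -1.01 on the log2 scale relative to a level of 10 TPM, and in CPM Myh9, Anxa11 and Stk38 passed (adjusted p between 0.000156 and 0.0361). Ahnak lost its call with a pseudocount of 5, the longest transcript length or replicate 3 left out, and Anxa11 passed among genes counted in all 3 libraries. In CPM, without gene length, the differences turned for S100a1 minus S100b (-0.20), S100a11 minus S100a13 (-0.32), S100a10 minus S100a16 (-0.54) and S100a4 minus Myh9 (-2.51). With the longest transcript length S100a10 minus Anxa2 turned to 0.093. Leaving out 1 library at a time gave ranges of -0.17 (without replicate 2) to 0.24 for S100a1 minus S100b, -0.69 to 0.083 (without replicate 1) for S100a10 minus Anxa2 and -0.21 (without replicate 3) to 0.80 for S100a4 minus Myh9. The other 118 of 126 alternatives for pairs kept their direction. The members took 1.21% of protein-coding counts, against 1.10% of all counts. No paired analysis was possible because there is 1 group. Low counts limit S100a4. It had 2 counts in replicate 1, the library with the most counts (18460546). It had 46 in replicate 3, the library with the fewest (14095521).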

Other observations

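Within the chromosome 3 span that holds the S100 genes, 3 protein-coding genes of other families stood above 1 TPM in limma's test, and they are named here after their values were seen. Adrm1b, related to a ubiquitin receptor of the proteasome, stood at 123, 97.8 and 112 TPM in replicates 1, 2 and 3. Lce6a (chromosome 3, 92527388 to 92528967), a late cornified envelope gene of the epidermis, stood at 77.0, 49.9 and 17.4 TPM on 732, 432 and 147 counts, and 2210017I01Rik (92512025 to 92514799), beside it, at 61.6, 36.01 and 7.90 TPM, both highest in replicate 1 and lowest in replicate 3. The epidermal genes Flg2, Hrnr and Crnn of the same span had no count.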
